A study of Mus musculus with 16 samples.

Results

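The genes described here encode the enzymes, regulators and transporters of glycolysis and the citric acid cycle, and they were measured in epithelial cells sorted from mouse colon. All 39 genes on the list were chosen by name, from glucose uptake to malate dehydrogenase, and not by their values, although earlier results of these data were known. All of them were in the deposited count files, which hold 45513 genes, and all 39 were among the 15841 genes that passed the filter on low counts. The list holds 21 genes of glycolysis and lactate handling and 18 genes of the pyruvate dehydrogenase complex and the citric acid cycle.

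The samples were EpCAM+ tdTom+ and EpCAM+ tdTom− live cells from the colon of 8 mice, with both populations taken from every mouse. EpCAM is a surface protein of epithelial cells. All mice carried Atoh1(WT)CreERT2, in which the tamoxifen-activated Cre recombinase is produced from the Atoh1 locus, and a Cre-dependent tdTomato reporter at Rosa26 (R26RtdTom). They were males and females of 8 to 16 weeks on a C57BL/6 background, and each received 1 mg tamoxifen per day on 3 days in a row, so tdTom− cells came from animals with the same alleles and the same drug. A tdTom+ cell had therefore expressed Atoh1, the transcription factor of secretory commitment, or descended from a cell that had, while the tdTom− sort was a mixture of all other epithelial cells and of cells in which Cre had not acted. The level of Atoh1 was 102.5 to 166.0 CPM (counts of a gene per 1000000 counts of its library, after TMM scaling) in the 8 tdTom+ libraries and 3.18 to 8.89 CPM in the 8 tdTom− libraries, and that of Muc2, the main goblet cell mucin, was 11700 to 16980 CPM against 278.4 to 907.5 CPM.

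Glycolysis splits glucose into pyruvate in the cytosol and yields a small amount of ATP without oxygen. Pyruvate either leaves as lactate, through lactate dehydrogenase and the monocarboxylate transporters, or enters mitochondria, where the pyruvate dehydrogenase complex turns it into acetyl-CoA for the citric acid cycle. Several steps are catalysed by isoenzymes from separate genes, which differ in their kinetics, regulation or compartment. Colonic absorptive cells are known for oxidising short-chain fatty acids, butyrate above all, which they take up in part through the same monocarboxylate transporters that carry lactate.

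Total counts were 16482530 to 24218367 in the tdTom+ libraries and 18318172 to 45791503 in the tdTom− libraries. The tdTom− library of mouse 4, which holds the highest total, stood apart, since the other tdTom− libraries reached 20668605 at most. Mitochondrial transcripts took 2.23% to 6.92% of the counts in tdTom+ cells and 3.74% to 9.97% in tdTom− cells, and the tdTom+ share was the lower one in every mouse. The 6 absorptive cell markers summed to 323.3 to 633.0 CPM in tdTom+ cells and to 5646 to 11150 CPM in tdTom− cells, all 6 lower in tdTom+ cells, and the 8 goblet cell markers summed to 43660 to 98040 CPM against 1965 to 8296 CPM, all 8 higher. The 5 enteroendocrine markers also summed lower in tdTom+ cells (273.5 to 727.9 CPM against 1290 to 3717 CPM), as did 5 tuft cell markers (40.0 to 85.2 CPM against 74.9 to 127.8 CPM), 4 stem cell markers (133.1 to 176.8 CPM against 162.7 to 261.4 CPM) and 6 cycling cell markers (512.5 to 805.4 CPM against 647.1 to 1137 CPM). In the fit below, all enteroendocrine and stem cell markers were lower, as were 4 of 5 tuft and 4 of 6 cycling markers. The tuft cell gene Pou2f3 (log2 fold change 0.05, edgeR adjusted p = 0.821) and the cycling genes Mki67 and Top2a did not pass. The 6 immune markers summed to at most 34.6 CPM and the 5 stromal markers to at most 3.36 CPM in any library. No listed marker was at 0 counts in all libraries. In sorted bulk samples such as these, fewer cells of a type and less RNA per cell cannot be told apart, and the part that cell composition played in any difference below was not tested.

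Glycolytic genes were lower in tdTom+ than in tdTom− cells along most of the pathway, and most of the citric acid cycle genes that passed were lower too, by smaller folds. No difference between these groups of genes was tested. Of the 39 genes, 25 were lower in tdTom+ cells and 4 were higher, while 10 did not pass the threshold (edgeR quasi-likelihood test, Benjamini-Hochberg adjusted p under 0.01 over all genes tested). The background was high, since 51.0% of all genes tested passed, 25.5% in each direction. Against it, 64.1% of the 39 genes were lower and 10.3% higher. In the 21 genes of glycolysis and lactate handling the shares were 76.2% lower and 9.52% higher, and in the 18 mitochondrial and citric acid cycle genes 9 genes lower and 2 higher (11.1%). The median log2 fold change was −0.37 over the 39 genes and −0.75 over the glycolytic and lactate genes. It was −0.18 over the 18 mitochondrial and citric acid cycle genes, which include the cytosolic Idh1 and Mdh1, beside 0.0039 over all genes tested. The 8 tdTom+ and 8 tdTom− libraries did not overlap for 22 of the 39 genes (56.4%), against 30.5% of all genes tested. With the mice split by the first digits of their numbers, all 25 lower and all 4 higher genes kept their sign in the 3 mice whose numbers begin with 73, where 19 and 1 of the 39 passed, and in the 4 mice whose numbers begin with 92, where 25 and 4 passed. The same mice had given the calls, so the kept signs are no independent check.

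**Figure D1:**
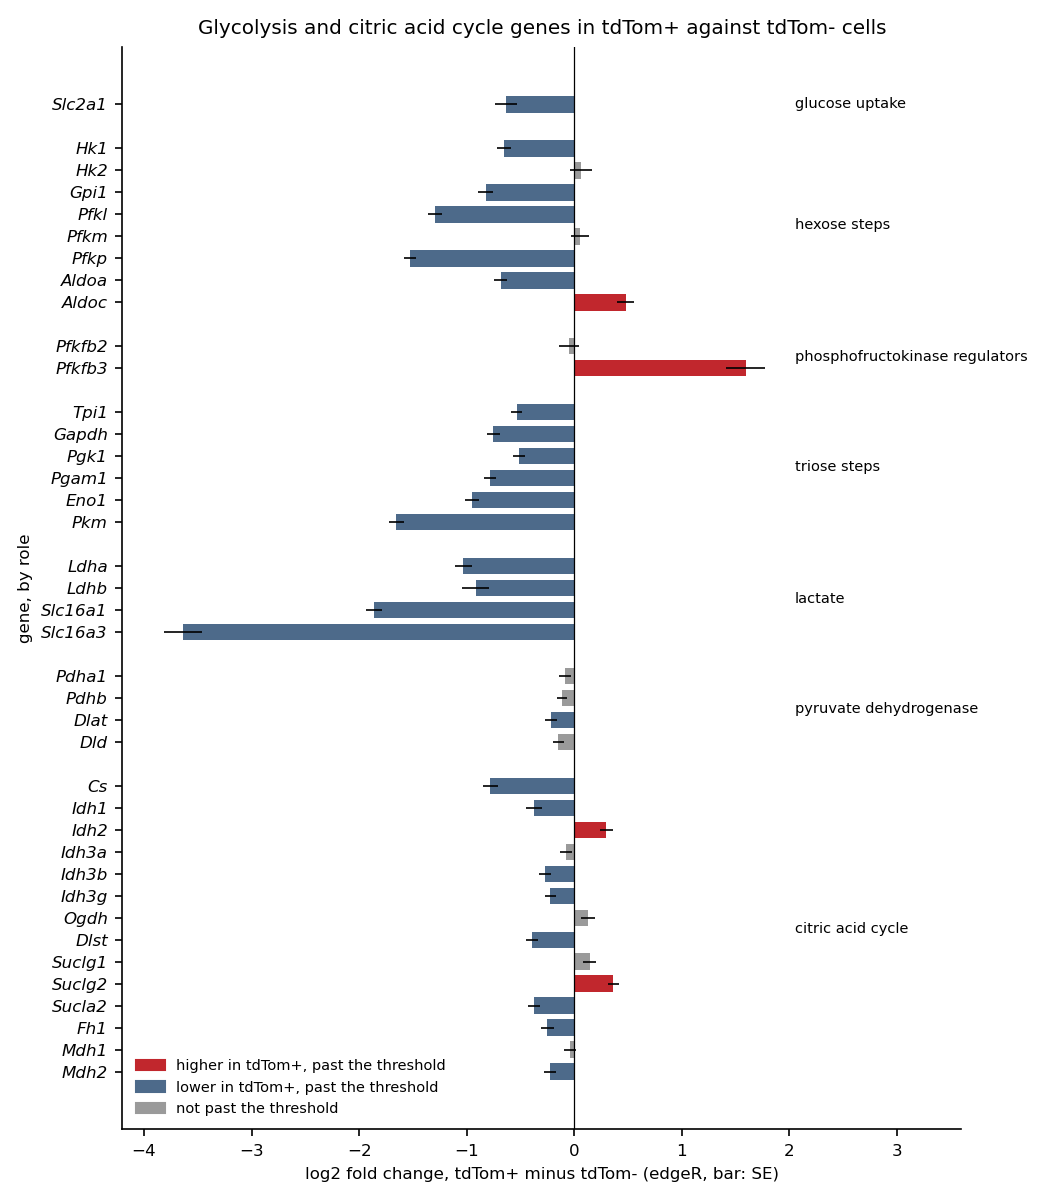
Log2 fold change (x axis, tdTom+ minus tdTom−, bars with SE) of all 39 genes (y axis), grouped by role, with genes past the adjusted p threshold in blue (lower in tdTom+ cells) or red (higher) and the others in grey. All 6 triose genes and all 4 lactate genes lie on the negative side, Slc16a3 farthest at −3.64, and Pfkfb3 has the longest positive bar at 1.59.

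Summed over its 21 genes, glycolysis and lactate handling took 3587 to 4014 CPM in tdTom+ libraries, with a median of 3766 CPM, and 6196 to 7573 CPM in tdTom− libraries, with a median of 7177 CPM. The medians differed 1.91-fold and the libraries did not overlap. The 18 mitochondrial and citric acid cycle genes summed to 3855 to 4132 CPM, with a median of 4005 CPM, in tdTom+ cells and to 4132 to 4628 CPM, with a median of 4477 CPM, in tdTom− cells, a 1.12-fold difference of medians. The second sum includes the cytosolic Idh1 and Mdh1. The ratio of the glycolytic to the second sum depends on how reads of gene copies are placed, as described for Gapdh. With the copies' counts added, the glycolytic sum had medians of 4846 CPM (tdTom+) and 9021 CPM (tdTom−), a 1.86-fold difference, and the second sum 4064 CPM and 4537 CPM, again a 1.12-fold difference.

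Glucose uptake was represented by Slc2a1, the widely expressed glucose transporter GLUT1. Its level was 95.9 to 113.7 CPM (median 102.3) in tdTom+ cells and 100.2 to 214.4 CPM (median 161.1) in tdTom− cells, and it fell in tdTom+ cells by 0.63 on the log2 scale (SE 0.10, n = 8 mice, edgeR adjusted p = 1.26e-05). The tdTom+ level was the lower one in 8 of 8 mice, but the groups overlapped through the tdTom− library of mouse 4, the lowest of its group at 100.2 CPM beside 95.9 CPM in the tdTom+ library of the same mouse.

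Among the 8 genes of the hexose steps, 5 fell in tdTom+ cells, 1 rose and 2 did not pass. These are 62.5% lower and 12.5% higher, beside 25.5% of all genes tested in each direction. Hexokinases trap glucose as glucose 6-phosphate. Hk1, the housekeeping form, was at 123.5 to 162.6 CPM (median 143.5) in tdTom+ cells and at 197.9 to 246.7 CPM (median 223.3) in tdTom− cells, a fall of 0.65 on the log2 scale (SE 0.07, edgeR adjusted p = 2.77e-08) with no overlap of the groups. Hk2, the inducible form, was at 155.4 to 191.4 CPM (median 179.6) against 109.1 to 218.5 CPM (median 168.4), with a log2 fold change of 0.06 (SE 0.10, edgeR adjusted p = 0.631). The Hk2 levels overlapped widely, and the tdTom− library of mouse 4 was the lowest of all. Gpi1, glucose-6-phosphate isomerase, fell by 0.82 on the log2 scale without overlap.

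Phosphofructokinase, the committed step, has a liver, a muscle and a platelet gene. The liver gene Pfkl was at 78.2 to 109.6 CPM (median 91.7) in tdTom+ cells and at 200.9 to 244.1 CPM (median 229.6) in tdTom− cells, and it fell by 1.29 on the log2 scale (SE 0.06, edgeR adjusted p = 2.97e-13). Pfkp, the platelet gene, showed the largest change of the hexose steps, from 160.8 to 205.1 CPM (median 192.8) in tdTom− cells to 61.5 to 68.0 CPM (median 66.4) in tdTom+ cells, a fall of 1.53 (SE 0.06, edgeR adjusted p = 4.18e-15). Neither gene had overlapping groups, and the tdTom+ libraries lay close together for Pfkp. The muscle gene Pfkm was at 13.2 to 18.2 CPM (median 14.7) against 12.9 to 16.7 CPM (median 14.4) and did not pass (log2 fold change 0.06, SE 0.08, edgeR adjusted p = 0.582).

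Aldolase cleaves fructose 1,6-bisphosphate into triose phosphates. Aldoa, the more abundant per kilobase of the aldolases listed, was at 586.7 to 673.9 CPM (median 658.0) in tdTom+ cells and at 908.4 to 1161 CPM (median 1042) in tdTom− cells, a fall of 0.68 on the log2 scale (SE 0.06, edgeR adjusted p = 6.17e-09). Aldoc, known as the brain form, went the other way, at 18.5 to 23.3 CPM (median 21.3) against 11.1 to 16.8 CPM (median 15.7), and rose by 0.48 (SE 0.08, edgeR adjusted p = 3.20e-05). Both genes had separate groups of libraries, and Aldoc was the only hexose step gene higher in tdTom+ cells in this fit.

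The largest rise in the list was in a regulator. Pfkfb3 (ENSMUSG00000026773, chr2:11471433-11554077, minus strand, in the GRCm38 coordinates of the files) encodes a bifunctional enzyme with strong kinase activity that makes fructose 2,6-bisphosphate, an activator of phosphofructokinase. Its level was 6.14 to 12.3 CPM (median 9.13) in tdTom+ cells and 1.94 to 4.82 CPM (median 3.28) in tdTom− cells. It rose by 1.59 on the log2 scale (SE 0.18, edgeR adjusted p = 1.19e-07), higher in 8 of 8 mice and without overlap, from 44 to 100 raw counts per tdTom− library and 149 to 206 per tdTom+ library. Its paralog Pfkfb2 was at 14.2 to 21.2 CPM (median 16.6) against 15.0 to 22.7 CPM (median 18.2) and did not pass (log2 fold change −0.05, SE 0.09, edgeR adjusted p = 0.683).

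All 6 genes of the triose steps fell in tdTom+ cells, in 8 of 8 mice each and without overlap of the groups. Of all genes tested, 25.5% were lower and 30.5% had groups that did not overlap. Among the 6 triose genes the largest change was that of Pkm (ENSMUSG00000032294, chr9:59656368-59679375, plus strand), the pyruvate kinase gene whose M1 and M2 splice forms cannot be resolved in counts per gene. Pkm was at 264.5 to 329.8 CPM (median 293.6) in tdTom+ cells and at 790.1 to 1060 CPM (median 941.7) in tdTom− cells, a fall of 1.65 on the log2 scale (SE 0.07, edgeR adjusted p = 2.69e-14), 3.15-fold. Eno1, enolase, fell by 0.95, Pgam1, phosphoglycerate mutase, by 0.78, Tpi1, triosephosphate isomerase, by 0.53, and Pgk1, phosphoglycerate kinase, by 0.51 on the same scale.

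Gapdh, the glyceraldehyde 3-phosphate dehydrogenase gene often used as a reference gene, was at 318.6 to 375.4 CPM (median 339.0) in tdTom+ cells and at 519.4 to 647.2 CPM (median 571.8) in tdTom− cells. It fell by 0.75 on the log2 scale (SE 0.06, edgeR adjusted p = 5.03e-10), equal to 1.68-fold, and the groups did not overlap. These counts may hold only some of the reads from Gapdh transcripts. The files count each primary alignment, also of reads that match several places, so reads common to a gene and its copies can be divided among them. The stretch below shows why, since it is an exon 4 coding stretch of Gapdh as long as 1 read, at chr6:125162898-125162947 on the minus strand (GRCm38, GENCODE M21), and is found letter for letter in transcripts of 79 other annotated genes. It lies at bases 493 to 542 of the longest annotated coding sequence.
Gapdh stretch: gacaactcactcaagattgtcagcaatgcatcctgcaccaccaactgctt
Gapdh had 85 copies that held at least 2% of its 50-base words, of which 82 were annotated as pseudogenes. Together they received 336456 counts in the 16 libraries, against 158492 on Gapdh itself, so 68.0% of the sum lay on the copies. That share was 68.6% in tdTom+ and 67.7% in tdTom− cells. With the copies' counts added to Gapdh, the log2 fold change was −0.71 in place of −0.75.

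Of the 39 genes, 24 held at least 1 50-base word of another gene, and for 12 of them a gene elsewhere held at least 2% of their words. The copies held 43.7% of the joint counts for Pgk1, 36.7% for Eno1, 19.2% for Pgam1, 12.3% for Suclg2 and 9.70% for Pdhb, and 9.13% or less for the other 6. Adding the copies moved the log2 fold change of Gapdh by 0.04, the largest move among the 39 genes. No direction or call among the 39 genes changed when the copies were added. Pfkfb2 (17.3% of its words shared), Pdha1 (12.9%), Pfkm (8.83%) and Pfkp (5.10%) shared words mostly with a gene annotated over the same bases, and the part of such overlaps in their counts was not tested. Whether the copies are themselves transcribed was not tested, so the levels printed for these genes are uncertain. The stated shares are parts of the joint counts and not of the printed levels. For Gapdh the tdTom+ median was 82.0 CPM per kb alone and 258.3 CPM per kb with the copies added.

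**Figure D2:**
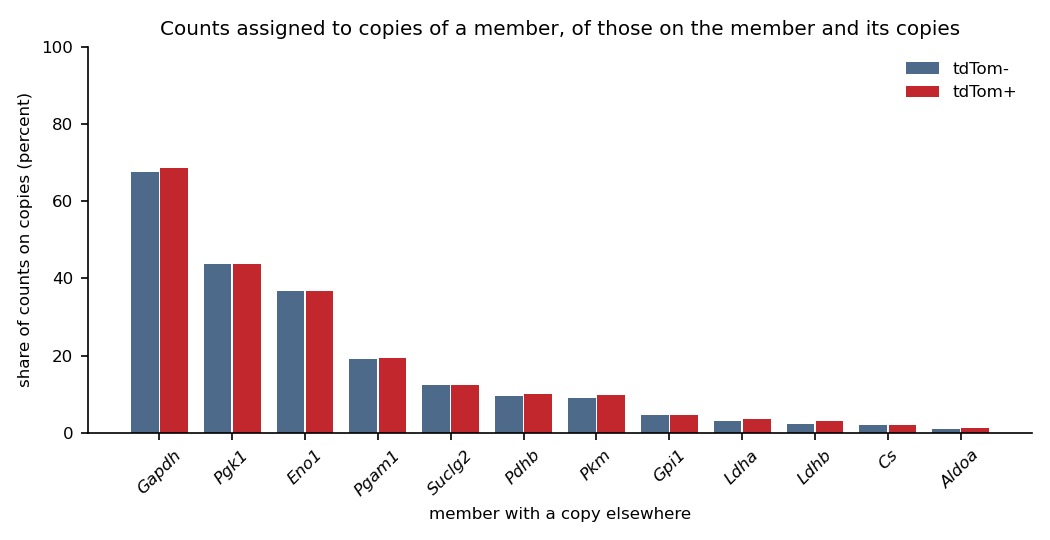
Share of counts (y axis, percent) assigned to copies elsewhere in the genome, of all counts on a gene and its copies, for the 12 genes that have such copies (x axis), in tdTom− (blue) and tdTom+ (red) libraries summed. The paired bars are nearly level for every gene, with Gapdh highest at 67.7% and 68.6%.

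The lactate genes held the largest differences. Lactate dehydrogenase interconverts pyruvate and lactate, with Ldha as the muscle-type and Ldhb as the heart-type subunit. Ldha was at 447.4 to 532.5 CPM (median 475.0) in tdTom+ cells and at 803.3 to 1128 CPM (median 1016) in tdTom− cells, a fall of 1.03 on the log2 scale (SE 0.08, edgeR adjusted p = 2.25e-10) without overlap. Ldhb was at 4.04 to 6.42 CPM (median 5.03) against 6.40 to 12.2 CPM (median 9.64), and fell by 0.92 (SE 0.13, edgeR adjusted p = 2.84e-06). Its groups met at their edges, although each mouse had the lower level in its tdTom+ library.

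The monocarboxylate transporters MCT1 and MCT4, encoded by Slc16a1 and Slc16a3, move lactate, pyruvate and, for MCT1, butyrate across the plasma membrane. Slc16a1 was at 84.8 to 110.6 CPM (median 100.5) in tdTom+ cells and at 295.4 to 411.6 CPM (median 360.2) in tdTom− cells, a fall of 1.86 on the log2 scale (SE 0.08, edgeR adjusted p = 1.94e-14), 3.63-fold. Slc16a3 went from 7.21 to 13.96 CPM (median 12.2) in tdTom− cells to 0.525 to 1.35 CPM (median 0.946) in tdTom+ cells. The gene (ENSMUSG00000025161) lies at chr11:120948480-120960868 on the plus strand. It fell by 3.64 (SE 0.18, edgeR adjusted p = 2.83e-13), 12.4-fold, the largest change of the 39 genes, on 11 to 34 raw counts per tdTom+ library. The groups were far apart for both transporters. The fold of Slc16a3 lies within the range of the absorptive markers, whose log2 fold changes ran from −5.18 to −3.30.

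**Figure D3:**
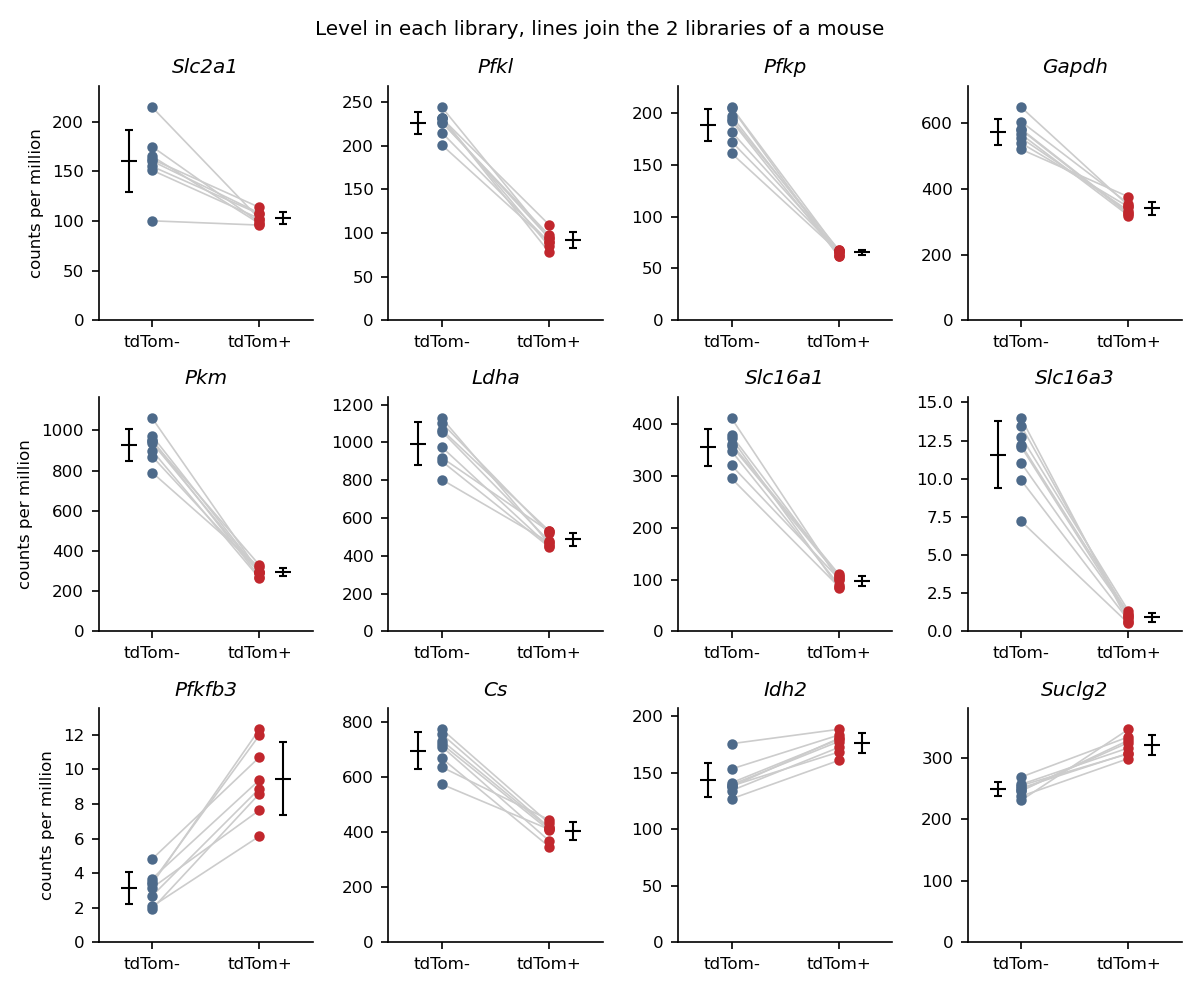
Level (y axis, CPM, linear and from 0) of 12 of the genes in the tdTom− (blue) and tdTom+ (red) library of each of 8 mice, joined by a line for each mouse, with mean and SD beside the points. For Pkm all tdTom+ points lie at 329.8 CPM or below and all tdTom− points at 790.1 CPM or above, while Pfkfb3, Idh2 and Suclg2 go up in every mouse.

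Since the glycolytic and lactate genes moved largely together, the bases before their start sites were read for the letters ACGTG, the core bound by hypoxia-inducible factors, and for CACGTG, the E-box bound by Myc and related factors. Windows of 250 bases before each RefSeq start site (GRCm38.p6) were searched on both strands. A window was present for 38 of the 39 genes, 58 windows in all, and for Idh3a none. Each CACGTG holds overlapping ACGTG matches on both strands. The ACGTG letters stood in 25 of the 58 windows (43.1%), against 16.6% of all 32851 windows of this length, and CACGTG in 8 of 58 (13.8%), against 6.02%. Windows of 1 gene can overlap, and base composition was not matched. Shares by gene count a match in any window of the gene. The 21 glycolytic and lactate genes had 35 windows, against 32851 for all 27025 genes, so each had more chances of a match. The background was also not limited to the genes tested in the fit. By gene, ACGTG was found for 12 of 21 glycolytic and lactate genes (57.1%) and for 4 of 17 mitochondrial and citric acid cycle genes (23.5%), beside 18.5% of all 27025 genes in the table. It was found for 9 of 25 genes lower in tdTom+ cells, 1 of 4 higher ones and 6 of 9 that did not pass. The first 4 windows below were picked because they hold it, from 3 lactate genes that fell and the regulator that rose, and Suclg2 is shown as a gene that rose and has none in its window. The other lactate gene that fell, Ldhb, had no match, and the other regulator, Pfkfb2, which did not pass, had ACGTG matches and an E-box. Letters are 5′ to 3′ on the gene's strand, with every ACGTG match of either strand in capitals. The windows are Ldha at chr7:46845554-46845803 (plus), 1 of its 2 windows, Slc16a1 at chr3:104638414-104638663 (plus), Slc16a3 at chr11:120948817-120949066 (plus), Pfkfb3 at chr2:11502091-11502340 (minus), 1 of its windows, and Suclg2 at chr6:95718847-95719096 (minus).
Ldha: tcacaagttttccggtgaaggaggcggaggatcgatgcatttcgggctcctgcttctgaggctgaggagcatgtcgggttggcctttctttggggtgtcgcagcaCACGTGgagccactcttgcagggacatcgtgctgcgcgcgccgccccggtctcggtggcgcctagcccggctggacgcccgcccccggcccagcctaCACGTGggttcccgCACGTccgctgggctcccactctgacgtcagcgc
Slc16a1: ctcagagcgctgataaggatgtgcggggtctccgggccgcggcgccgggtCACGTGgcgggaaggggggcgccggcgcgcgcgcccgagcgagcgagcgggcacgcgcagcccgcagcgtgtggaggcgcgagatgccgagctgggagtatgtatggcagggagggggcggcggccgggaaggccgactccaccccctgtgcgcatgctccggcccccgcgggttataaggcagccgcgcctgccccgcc
Slc16a3: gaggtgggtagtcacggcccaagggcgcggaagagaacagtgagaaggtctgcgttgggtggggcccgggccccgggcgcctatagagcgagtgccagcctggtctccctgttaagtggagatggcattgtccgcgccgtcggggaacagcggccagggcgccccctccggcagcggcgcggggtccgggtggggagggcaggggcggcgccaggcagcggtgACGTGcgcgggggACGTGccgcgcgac
Pfkfb3: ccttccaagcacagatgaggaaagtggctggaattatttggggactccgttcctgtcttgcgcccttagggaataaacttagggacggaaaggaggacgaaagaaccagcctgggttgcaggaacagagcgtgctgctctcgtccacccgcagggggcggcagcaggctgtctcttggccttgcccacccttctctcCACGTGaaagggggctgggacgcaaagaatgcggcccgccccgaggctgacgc
Suclg2: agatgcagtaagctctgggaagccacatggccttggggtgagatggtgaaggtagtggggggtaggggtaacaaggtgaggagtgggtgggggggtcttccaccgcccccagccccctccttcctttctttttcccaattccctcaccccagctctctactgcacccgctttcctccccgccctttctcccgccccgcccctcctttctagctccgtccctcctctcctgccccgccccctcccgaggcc
Ldha had the most matches, with 5 ACGTG in this window, 4 of them within 2 E-boxes, and none in its other window. Slc16a1, which fell, and Pfkfb3, which rose, each had 1 E-box. Slc16a3, which fell most, had 2 ACGTG matches close before the start site and no E-box. A match of letters is a description and does not show binding.

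The 4 listed genes of the pyruvate dehydrogenase complex changed little, with 25.0% of them lower beside 25.5% of all genes tested. Of these 4 genes only Dlat, the E2 subunit, passed in this fit. It was at 69.3 to 75.3 CPM (median 73.1) in tdTom+ cells and 70.0 to 92.1 CPM (median 87.6) in tdTom− cells. It fell by 0.22 on the log2 scale (SE 0.06, edgeR adjusted p = 0.00267). Its groups overlapped, and without mouse 4 it did not pass (log2 fold change −0.18, edgeR adjusted p = 0.015). Dld, the E3 subunit shared with other dehydrogenase complexes, had a log2 fold change of −0.15 (SE 0.05, edgeR adjusted p = 0.0126), but it passed once the mouse was a blocking term (−0.15, SE 0.05, edgeR adjusted p = 0.00837), a fit that called 57.2% of all genes, 28.4% higher and 28.9% lower. The E1 genes Pdha1 and Pdhb had log2 fold changes of −0.08 (SE 0.06) and −0.11 (SE 0.04), with edgeR adjusted p of 0.208 and 0.0317.

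Of the 14 genes listed for the citric acid cycle, the cytosolic Idh1 and Mdh1 included, 8 fell, 2 rose and 4 did not pass. For 6 of the 14 genes the groups of libraries did not overlap. These are 57.1% lower, 14.3% higher and 42.9% without overlap, beside 25.5%, 25.5% and 30.5% of all genes tested. The largest fall was that of Cs (ENSMUSG00000005683, chr10:128337832-128362479, plus strand), citrate synthase, the entry step of the cycle. Cs was at 347.5 to 444.6 CPM (median 412.2) in tdTom+ cells and at 573.5 to 773.0 CPM (median 714.7) in tdTom− cells, a fall of 0.78 on the log2 scale (SE 0.07, edgeR adjusted p = 6.18e-09) without overlap. The other 7 falls among these 14 genes were of 0.39 or less. Dlst, the E2 subunit of the 2-oxoglutarate dehydrogenase complex, fell by 0.39, Idh3b and Idh3g, subunits of the NAD-dependent isocitrate dehydrogenase, by 0.27 and 0.22, and Fh1, fumarase, by 0.25. The call of Fh1 was lost without mouse 4 (log2 fold change −0.20, edgeR adjusted p = 0.0122). The subunit genes Ogdh (0.13, SE 0.06), Suclg1 (0.14, SE 0.06) and Idh3a (−0.08, SE 0.05), did not pass, with edgeR adjusted p of 0.089, 0.0465 and 0.215.

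Succinyl-CoA synthetase pairs a common alpha subunit, Suclg1, with a GTP-specific beta subunit, Suclg2, or an ATP-specific one, Sucla2. The beta subunits moved in opposite directions. Suclg2 was at 298.9 to 346.4 CPM (median 320.5) in tdTom+ cells and 231.0 to 268.9 CPM (median 249.2) in tdTom− cells, and it rose by 0.36 on the log2 scale (SE 0.05, edgeR adjusted p = 2.90e-06). Sucla2 was at 61.2 to 75.3 CPM (median 70.2) against 84.1 to 103.3 CPM (median 88.3), and it fell by 0.37 (SE 0.05, edgeR adjusted p = 3.68e-06). Neither gene's groups overlapped, and 8 of 8 mice showed each direction.

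The NADP-dependent isocitrate dehydrogenases moved apart as well. Idh1, in the cytosol and peroxisomes, was at 145.2 to 205.7 CPM (median 179.9) in tdTom+ cells and 183.2 to 253.9 CPM (median 237.8) in tdTom− cells, a fall of 0.37 on the log2 scale (SE 0.08, edgeR adjusted p = 0.000303). Idh2, in mitochondria, was at 160.8 to 188.3 CPM (median 178.5) against 126.9 to 175.6 CPM (median 138.9), a rise of 0.30 (SE 0.06, edgeR adjusted p = 0.000283). The groups overlapped for both genes, although 8 of 8 mice moved in the stated direction. The rise of Idh2 did not pass when libraries were scaled by total counts only (0.24, edgeR adjusted p = 0.0219).

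Malate dehydrogenase has a cytosolic gene, Mdh1, and a mitochondrial gene, Mdh2, both of which take part in the malate-aspartate shuttle. Mdh1 was at 320.4 to 377.4 CPM (median 340.1) in tdTom+ cells and 332.4 to 380.0 CPM (median 343.4) in tdTom− cells and did not pass (log2 fold change −0.04, SE 0.05, edgeR adjusted p = 0.581). Mdh2 was at 309.9 to 356.5 CPM (median 332.4) against 353.0 to 427.9 CPM (median 379.9) and fell by 0.22 (SE 0.06, edgeR adjusted p = 0.0016). The groups of Mdh2 overlapped by a small margin.

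To compare isoenzymes within each library, counts were divided by exon length and the share of a gene among its isoenzymes on the list was taken, a measure that library scaling cannot change. Of 10 shares compared, 9 differed between the populations, in the same direction in all 8 mice, each with p = 0.0078 in a two-sided exact sign-flip permutation test (adjusted p = 0.0087 over the 10 shares), which is the smallest p that 8 mice can give. The largest shift in percentage points was that of Pfkfb3 among Pfkfb2 and Pfkfb3, at 34.0% ± 6.48 (SD, n = 8) in tdTom+ cells and 14.3% ± 4.04 in tdTom− cells, a mean difference of 19.8 points (SD 4.20). This share leaves out Pfkfb4, which is not among the 39 genes and did not pass. Its medians were 7.97 CPM per kb in tdTom+ and 8.17 CPM per kb in tdTom− cells. Those of Pfkfb2 were 2.28 and 2.51, and those of Pfkfb3 1.21 and 0.433. The points therefore hold for Pfkfb2 and Pfkfb3 alone, and with Pfkfb4 included the shift would be smaller. The Hk2 share of Hk1 and Hk2 was 63.9% ± 1.78 against 51.5% ± 5.28, a difference of 12.4 points (SD 4.30), with Hk1 falling and Hk2 itself not past the threshold. Hkdc1, a hexokinase family gene off the list, was left out of it. Its medians were 0.72 CPM per kb in tdTom+ and 13.0 CPM per kb in tdTom− cells, beside 30.1 and 28.2 for Hk2. With Hkdc1 included the Hk2 share would be lower, above all in tdTom− cells, and the shift larger. The order of the shifts therefore holds only for the genes compared. Idh1 made up 48.4% ± 3.48 of Idh1 and Idh2 in tdTom+ cells and 59.9% ± 3.19 in tdTom− cells, and this difference of −11.5 points had a small spread over mice (SD 0.91).

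The other shares moved by fewer points. Suclg2 took 88.9% ± 0.76 of the beta subunits in tdTom+ cells and 82.8% ± 0.71 in tdTom− cells. Mdh1 took 59.0% ± 1.36 against 55.9% ± 1.14 of malate dehydrogenase. Aldoc remained a minor aldolase, with 2.69% ± 0.27 against 1.22% ± 0.11, and Slc16a3 a minor transporter, with 0.779% ± 0.23 against 2.63% ± 0.38, both large relative changes of a small share. These differences were all larger than their spread over mice.

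Within phosphofructokinase, the Pfkp share was 21.2% ± 1.79 in tdTom+ and 26.2% ± 1.89 in tdTom− cells, and the Pfkl share 63.4% ± 1.74 against 67.3% ± 1.68. The rest was Pfkm, whose share was 15.5% ± 1.25 against 6.46% ± 0.54 and was not tested because the 3 shares add to 100%. The Pfkl difference of −3.96 points depended on the division by length, since with plain counts it was 0.54 points (adjusted p = 0.49). Ldhb, the 10th share, was 2.003% ± 0.32 against 1.88% ± 0.52 of the lactate dehydrogenases. Its difference of 0.12 points (SD 0.35) was smaller than its spread, higher in 5 and lower in 3 mice (exact permutation p = 0.37, adjusted p = 0.37).

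**Figure D4:**
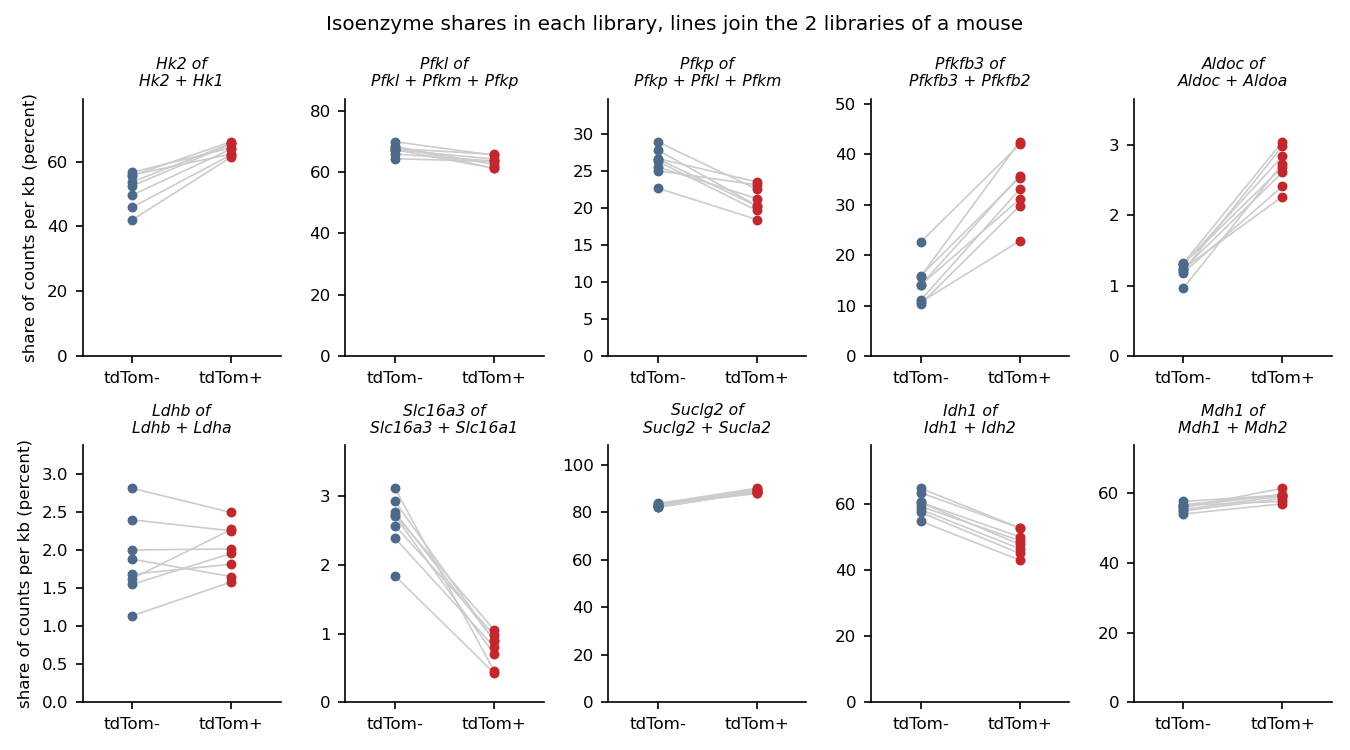
Share of a gene among its listed isoenzymes (y axis, percent of counts per kb, from 0) in the tdTom− (blue) and tdTom+ (red) library of each of 8 mice, joined by a line for each mouse, for 10 shares. All lines run the same way in 9 panels, and they cross in the panel of Ldhb, where 5 mice go up and 3 go down.

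Per kilobase of exon, the highest median levels among the 39 genes in tdTom− cells were those of Aldoa (378.5 CPM per kb), Pkm (362.4 CPM per kb) and Ldha (340.8 CPM per kb). In tdTom+ cells they were those of Aldoa (238.9 CPM per kb), Tpi1 (182.0 CPM per kb) and Ldha (159.3 CPM per kb), followed by Cs (145.7 CPM per kb) and Suclg2 (140.7 CPM per kb), with Pkm at 113.0 CPM per kb. The lengths are those of all annotated exons of a gene joined, which lowers the level per kb of genes with long rarely used exons, Gapdh with 4133 bases among them. This order also leaves out the copies. With their counts added, Gapdh was first in both populations, at 429.4 CPM per kb in tdTom− and 258.3 CPM per kb in tdTom+ cells, ahead of Pkm (397.4 CPM per kb) and Aldoa (382.4 CPM per kb) in tdTom− cells and of Aldoa (241.7 CPM per kb) in tdTom+ cells.

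Another 66 genes of the same and adjoining pathways were on a list made for comparison, of which 58 were tested, 30 fell (51.7%), 5 rose (8.62%) and 23 did not pass, beside 25.5% of all genes in each direction. With the mouse as a blocking term 31 fell and 7 rose, as Bpgm, Pdk1 and Rpe passed in addition. In glycolysis 7 of 13 tested genes fell and 1 rose (61.5% called, beside 51.0% of all genes). The largest falls were those of Hkdc1, a hexokinase family gene, by 4.21 on the log2 scale (SE 0.21, edgeR adjusted p = 3.49e-13) and of Eno3, the muscle enolase, by 2.67 (SE 0.19, edgeR adjusted p = 9.65e-11). Slc16a7, the transporter MCT2, rose by 2.24 (SE 0.16, edgeR adjusted p = 1.32e-10), from 1.84 to 3.95 CPM in tdTom− cells to 10.4 to 16.8 CPM in tdTom+ cells, the opposite direction to Slc16a1 and Slc16a3. Of 10 further genes of pyruvate entry 3 fell (30.0%) and 0 rose, beside 25.5% of all genes tested in each direction. Pdk4, a kinase that inhibits pyruvate dehydrogenase, fell by 3.61 (SE 0.36, edgeR adjusted p = 2.77e-08). Pcx, pyruvate carboxylase, fell by 0.64 (SE 0.11, edgeR adjusted p = 3.78e-05), and the other fall was that of Pdhx, given above.

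Of 11 further citric acid cycle genes 5 fell and 1 rose (54.5% called, near the share of all genes). Sdhb and Sdha, subunits of succinate dehydrogenase that are named here after their values were seen, fell by 0.53 and 0.48. Me1 and Me2, the cytosolic and a mitochondrial malic enzyme, fell by 1.81 and 1.18, and Acly, which splits citrate in the cytosol into acetyl-CoA for lipid synthesis, rose by 0.65 (SE 0.08, edgeR adjusted p = 2.31e-07). In gluconeogenesis 2 of 5 tested genes rose and 2 fell (80.0% called, beside 51.0% of all genes tested). Pck1, cytosolic phosphoenolpyruvate carboxykinase, rose by 1.70 (SE 0.13, edgeR adjusted p = 3.41e-10), from 88.1 to 180.1 CPM to 290.2 to 460.4 CPM, and G6pc3, a widely expressed glucose 6-phosphatase, by 0.37, while Fbp1 and Fbp2, the fructose bisphosphatases, fell by 1.15 and 0.50. In the pentose phosphate pathway 5 of 7 genes fell (71.4%, beside 25.5% of all genes tested), with Taldo1, transaldolase, by 0.79 and G6pdx, the entry enzyme, by 0.68. Of 12 regulators 8 fell (66.7%) and 1 rose (8.33%), beside 25.5% of all genes tested in each direction. Egln3, an oxygen-sensing prolyl hydroxylase, fell by 1.72 (SE 0.14, edgeR adjusted p = 1.42e-09) and Ppargc1b, a coactivator of mitochondrial genes, by 0.87, and Arnt, the partner subunit of the hypoxia-inducible factors, rose by 0.15 (SE 0.04, edgeR adjusted p = 0.0076). Epas1, an alpha subunit of these factors, fell by 0.77 (SE 0.07, edgeR adjusted p = 1.11e-08). Hif1a (log2 fold change −0.08, edgeR adjusted p = 0.647) and Myc (−0.11, edgeR adjusted p = 0.389) did not pass.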

How the data were processed

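RNA was measured in 16 libraries, 1 tdTom+ and 1 tdTom− library from the colon of each of 8 mice, and libraries were grouped and paired by their labels. The authors made stranded mRNA libraries, aligned 50-base single-end reads to GRCm38.p3 with TopHat2 2.1.1, and deposited raw counts per gene from featureCounts (1.5.0-p1 in the file headers, Subread 1.5.2 in the submitters' processing notes), counting primary alignments on exons on the reverse strand, without normalization. The annotation release is not given in the sources used here. Reads that fit several places could be assigned to any copy of a gene, so such levels are uncertain.

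Symbols came from GENCODE M21 by gene ID and matched 44585 of 45513 genes, all 39 described here included. Counts were compared in edgeR 4.0.16 (R 4.3.3) with filterByExpr, TMM, and the quasi-likelihood test (glmQLFit, glmQLFTest) without the mouse, at a threshold of 0.01 on the Benjamini-Hochberg adjusted p. CPM values use TMM library sizes. Shares of isoenzymes were tested by exact sign flips over mice (Python 3.11.15, threshold 0.05). The 39 genes, the other lists and the tests were chosen with earlier results of these data known. Full values are given for the largest change in each direction in each role, all isoenzyme pairs and Gapdh, and, among the other pathway genes, for up to 2 changes in each direction in each group. Pfkfb4, Pdhx, Epas1, Hif1a and Myc are named in addition, after their values were seen.

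The mouse numbers pair the samples, since both come from the same animal. Deviations from the group means correlated at 0.22 to 0.41 within a mouse, above every correlation with another mouse (at most 0.17). No replicate libraries agreed within sampling noise. A member's copies were genes elsewhere that held at least 2% of its 50-base words in GENCODE M21 transcripts. On simulated counts the fit recovered 198 of 200 changed genes with 2 false calls among 15736 genes tested. Few genes were changed there, by folds larger than many of those described, and libraries were not paired. The simulation therefore does not test the fit where 51.0% of all genes pass or where changes are small. The alternatives run were a block for the mouse, the number series as a covariate or split, 4 other scalings, other filters, DESeq2 1.42.0, limma-voom (limma 3.58.1), an adjusted p of 0.05, each mouse left out, and, chosen after seeing the data, the copies added and the deepest library left out. At 16482530 to 45791503 counts per library, a floor of 3 counts is 0.0655 to 0.182 CPM, for counting error only.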

Additional observations from a re-analysis of the deposited data

Results flagged for a closer look

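In each group of 8 libraries the highest and lowest values of the 39 genes and the 10 isoenzyme shares were compared with the nearest other library. In 5 of 98 such groups 1 library lay far from the rest, and chance alone gives about 1 in 20, or 4.9 groups. Tpi1 was at 628.6 CPM in the tdTom− library of mouse 6, with the others at 565.8 to 589.8 CPM. Idh3b was at 242.1 CPM in the tdTom− library of mouse 4, with the others at 197.9 to 217.0 CPM, and Idh3g in the same library at 155.5 CPM, with the others at 125.7 to 138.5 CPM. The Pfkfb3 share was 22.6% in the tdTom− library of mouse 1, with the others at 10.2% to 15.9%, and the Aldoc share in the same library was 0.963%, with the others at 1.18% to 1.32%. All 5 were tdTom− libraries.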

How the results depend on the processing

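Of 897 log2 fold changes of the 39 genes under alternatives, in 871 neither sign nor call changed, and 20 of the 29 genes that passed kept sign and call under every alternative run. None of the 29 reversed. The 5 reversals were of genes that had not passed, with log2 fold changes of −0.072 for Hk2, 0.017 for Idh3a and 0.014 for Mdh1 in the 3 mice numbered 73, −0.014 for Pfkm in the 4 mice numbered 92, and −0.0094 for Hk2 without the tdTom− library of mouse 4. The mice numbered 73 alone gave 2546 higher and 2559 lower genes in all, and of the 39 genes 1 higher, with 0 of the hexose steps and 0 of the citric acid cycle higher, 3 of the citric acid cycle lower and 0 of pyruvate dehydrogenase lower, with fewer samples by construction. The number of pyruvate dehydrogenase genes lower was 1, but 2 with DESeq2, with at least 10 counts in every sample, with the number series as covariate, with upper-quartile scaling and with the mouse as a block, 3 at an adjusted p under 0.05, and 0 to 2 with each mouse left out. With total counts only, 1 citric acid cycle gene was higher in place of 2. The Pfkl share difference reversed to 0.54 points without division by length, because lengths set the weight of each gene. The cause of the other changes was not tested. With the replicate block, no call among the 39 genes changed but that of Dld. Of the other pathway genes Bpgm, Pdk1 and Rpe passed in addition, and of the markers Mki67, Top2a and Lyz2. Levels near the floor, such as Slc16a3 in tdTom+ cells at 11 to 34 raw counts per library, carry the widest relative counting error.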
